A study of Mus musculus with 8 samples.

Results

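Fibrillar collagen is made as procollagen and is changed by a fixed series of enzymes before it becomes a crosslinked fibre, and 10 genes that code for such enzymes or their helpers are described here in mouse skin. The genes were P4ha1, P4ha2, Plod1, Plod2, Pcolce, Pcolce2, Lox, Loxl1, Loxl2 and Loxl3, each found by its symbol, and all 10 were among the 31053 genes listed in the files. Single-cell RNA-seq was performed on dorsal skin of female BALB/c mice aged 14 to 16 weeks, taken as 4 mm biopsies and dissociated to single cells. Injections under the skin held either PBMCsec, the secretome of irradiated human peripheral blood mononuclear cells, or vehicle, and each of the 2 groups held 4 libraries numbered 1 to 4. The study's methods describe injections into scars, controls of NaCl or culture medium and collection at 2 time points, but the labels name neither the time point nor the solution of a vehicle library, so the libraries were compared by treatment alone. Nothing in the labels says that each library came from a separate mouse, so p-values measure the spread between these libraries.

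In the endoplasmic reticulum, prolyl 4-hydroxylases modify prolines that let the collagen triple helix hold at body temperature, and lysyl hydroxylases modify lysines that later carry sugars and crosslinks. Outside the cell, proteinases cut off the C-terminal propeptide, helped by the procollagen C-proteinase enhancers. Lysyl oxidases then convert lysines and hydroxylysines to aldehydes, which join collagen and elastin molecules covalently. In skin these steps are known chiefly from fibroblasts, which deposit the dermal matrix and scar tissue.

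The libraries held between 14753926 and 37880651 UMIs (unique molecular identifiers, which count captured RNA molecules). Of 26231 barcodes, 6150 cells passed the filter on genes, UMIs and mitochondrial counts, between 151 and 1659 per library, with 4 barcodes of kept cells shared between libraries. Clusters were named from marker genes as fibroblasts (FBs, 1402 cells), keratinocytes (KCs, 1029), hair follicle cells (HFs, 878), T cells (TCs, 747), dendritic cells and macrophages (DC/Macro, 518), smooth muscle cells and pericytes (SMC/PC, 100) and endothelial cells (ECs, 83). A further 397 cells carried keratinocyte and follicle markers alike (KC/HF), and 4 clusters met no rule and are called by their leading genes. The vehicle libraries numbered 1 and 2 held 28 and 20 FBs, against 138 to 499 in those numbered 3 or 4, so they carry the largest counting error in every FB value below. The 10 genes were left out of the variable genes used for clustering.

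Levels are given as CPM, a gene's UMIs scaled to a common total of UMIs in the class, pooled over the libraries, with the lowest, median and highest library that held at least 10 cells of the class. Pooled levels weigh libraries with many UMIs most and are not corrected for library composition, so ratios between classes can change with the scaling. RNA that leaked from broken cells can reach all droplets, and collagen RNA in lymphocytes was taken as its measure. Col1a1, Col1a2 and Col3a1 in TCs stood at 0.43%, 0.37% and 0.44% of their FB level. Of the 10 genes, Lox (0.18%), Pcolce2 (0.24%), Loxl1 (0.34%), Loxl2 (0.44%) and Pcolce (0.54%) stood in the same range in TCs, and these values were read as background. P4ha1 in TCs stood at 65.5% of its FB level, Plod2 at 15.4%, Plod1 at 9.92% and P4ha2 at 7.02%, which is above that range. Loxl3 stood at 1.86%, also above it but from 2 UMIs.

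FBs held most of the UMIs of 9 of the 10 genes, from 61.6% for Plod1 to 98.7% for Pcolce2, and P4ha1 was the exception with 41.7%. In one edgeR quasi-likelihood fit over the class sums with the library as a block, all 10 genes were higher in FBs than in KCs (34.1% of 9867 genes were), TCs (33.8%), HFs (31.3%), KC/HF cells (29.6%) and DC/Macro (31.3%) at an adjusted p under 0.05. Against ECs, 9 of the 10 were higher in FBs (18.9% of genes) and Plod1 was higher in ECs (11.8%). An exact test on neighbouring classes in the order of levels compared 60 pairs, and 0 passed after Benjamini-Hochberg adjustment. Its smallest adjusted p was 0.078, since 8 libraries that all differ the same way cannot give an exact p below 0.0078. SMC/PC held at least 10 cells in 5 libraries only and were not tested.

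**Figure D1:**
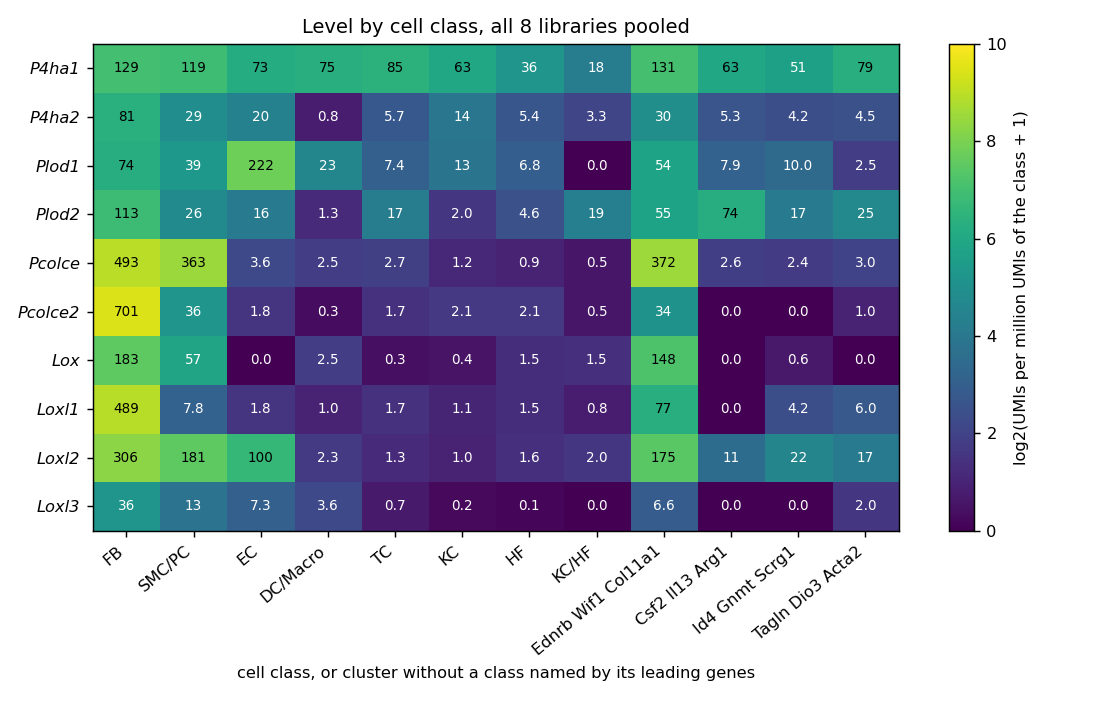
Level of each gene (down the side) in each cell class or unnamed cluster (across), as CPM with all 8 libraries pooled. The printed number is the level, and the colour is the log2 of the level after adding 1. P4ha1 is filled from left to right, Pcolce, Lox and Loxl1 are bright in FBs and near 0 in epithelial and immune cells, and Plod1 has its brightest cell in ECs (222).

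P4ha1 codes for the most widely used catalytic subunit of prolyl 4-hydroxylase, and its RNA was present in all the larger classes. The FB level was 129 CPM (76.2, 166 and 315 in the lowest, median and highest of 8 libraries). SMC/PC stood at 119 (39.9, 103 and 214 in 5 libraries), TCs at 84.5 (32.0, 72.9 and 143), DC/Macro at 75.3 (30.9, 79.9 and 145), ECs at 72.7 (12.01, 37.9 and 168 in 6 libraries) and KCs at 63.4 (41.0, 65.3 and 76.9). HFs stood lower, at 36.4, and KC/HF cells at 17.6. The unnamed cluster led by Ednrb, Wif1 and Col11a1 held 131 (77.8, 109 and 206 in 5 libraries), next to the FB level when pooled. As means of libraries after edgeR's correction for library composition, P4ha1 stood at 155 in that cluster, 107 in SMC/PC and 247 in FBs. The FB mean covers 8 libraries and the other means 5, without PBMCsec library 2 and vehicle libraries 1 and 2. With that correction made within FBs alone, P4ha1 in FBs was higher in libraries numbered 1 or 2 (217 to 334) than in those numbered 3 or 4 (80.4 to 124). These ranges are on another scale than the uncorrected library values above. These means therefore do not compare like sets of libraries. FBs were above DC/Macro in 8 of 8 libraries, by 0.93 on the log2 scale in edgeR (SE 0.19, adjusted p = 2.46e-05). The next steps in the order, DC/Macro to TCs and TCs to KCs, did not differ beyond their spread (higher in 5 and in 4 of 8 libraries, exact p = 0.31 and 1). A UMI was found in 57.4% of FBs (exact Clopper-Pearson interval 54.8% to 60.0%), 38.6% of KCs, 33.4% of DC/Macro cells and 19.9% of TCs, whose median depths were 9107, 10979, 7239 and 3334 UMIs. After thinning to 1000 UMIs in each cell, which left out 21 FBs, 14 KCs, 7 DC/Macro cells and 6 TCs as too shallow, P4ha1 was found in 11.01%, 5.91%, 8.22% and 6.34% of these classes. Lox, which TCs should lack, had a UMI in 0.134% of TCs.

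P4ha2, the second catalytic subunit, was narrower. FBs held it at 81.2 CPM (50.1, 97.0 and 241), above KCs (14.0) by 2.46 on the log2 scale in edgeR (SE 0.22, adjusted p = 4.54e-14). ECs stood at 20.0, SMC/PC at 28.5 and TCs at 5.70. DC/Macro, which held P4ha1 well, had 3 UMIs of P4ha2 in 518 cells. KCs held 11.9% of all P4ha2 UMIs, the largest share outside FBs.

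Promoter sequences from RefSeq (GRCm38.p6) were given for 5 of the genes, P4ha1, P4ha2, Plod1, Pcolce and Pcolce2, and the 250 bases before the start are used here. They were searched on both strands for ACGTG and GCGTG, the core that hypoxia-inducible factors are known to bind, because several collagen hydroxylases are known hypoxia-responsive genes. At least 1 match was found in 38.6% and at least 3 in 6.58% of 32851 promoters of that length. P4ha1 and P4ha2 held 3 matches each, Plod1 and Pcolce 1 each, and Pcolce2 held 0. The windows of a prolyl and of a lysyl hydroxylase gene are shown, 5′ to 3′ in gene direction and with matches in capitals, since they differ in matches. The P4ha1 window lies at chr10:59323046-59323295 (plus strand) and that of Plod1 at chr4:147936777-147937026 (minus strand), both outside the gene in the GENCODE annotation. Of the other windows, those of P4ha2 and Pcolce lie wholly inside the annotated gene, as do 27 bases of that of Pcolce2, so these are not upstream of every annotated start. A match is a description of the letters and not a bound site.
P4ha1: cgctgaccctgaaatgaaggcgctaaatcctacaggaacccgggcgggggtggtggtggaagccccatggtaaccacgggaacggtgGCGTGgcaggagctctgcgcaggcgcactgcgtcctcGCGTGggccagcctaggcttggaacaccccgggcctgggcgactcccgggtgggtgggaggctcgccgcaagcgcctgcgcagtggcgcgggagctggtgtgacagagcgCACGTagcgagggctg
Plod1: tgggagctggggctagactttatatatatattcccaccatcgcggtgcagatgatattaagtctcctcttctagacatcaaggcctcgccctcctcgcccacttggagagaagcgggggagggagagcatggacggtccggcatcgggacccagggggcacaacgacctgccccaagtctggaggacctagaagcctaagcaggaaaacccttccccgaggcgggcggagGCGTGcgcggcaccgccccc
P4ha1 held 24, P4ha2 21 and Plod1 16 CpG steps against a median of 6 over all promoters. Both searched cores hold a CpG step, so a window with many CpG steps has more places for a match. The shares of promoters with matches are over all CpG counts, and promoters of like CpG count were not compared.

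Plod1 codes for lysyl hydroxylase 1, which acts on lysines in the collagen helix, and it was the only one of the 10 genes with a higher level in another named class than FBs. ECs held it at 222 CPM (123, 190 and 287 in the lowest, median and highest of 6 libraries), against 74.4 in FBs (60.4, 81.1 and 185 in 8 libraries). The EC class joined 2 clusters, 1 of 49 cells with Lyve1 and Prox1 among its markers and 1 of 34 cells with Vwf. Plod1 was not split between these clusters. A UMI was found in 60.2% of ECs (48.9% to 70.8%) and in 41.8% of FBs (39.2% to 44.4%), although ECs were shallower (median 7005 against 9107 UMIs). Thinned to 1000 UMIs, the shares were 20.3% and 6.15%. The intervals pool cells. Over single libraries the unthinned shares overlapped, at 20% to 81.8% in ECs and 33.9% to 70% in FBs. The difference of FBs minus ECs was -0.75 on the log2 scale in edgeR (SE 0.24, 95% interval -1.24 to -0.26, adjusted p = 0.014). That fit corrects for library composition, which the pooled levels do not. With this correction the means of libraries were 198 CPM in ECs (6 libraries) and 147 in FBs (8 libraries), so they cover unlike sets of libraries. The exact paired test gave p = 0.094, with ECs higher in 5 of 6 libraries (smallest possible p 0.031). Without the 5% of cells with the highest doublet score, the mean log2 CPM was 7.19 in ECs and 7.26 in FBs, so the order of the pair turned. DC/Macro followed at 22.9, KCs at 13.2, and TCs and HFs at 7.38 and 6.84. KC/HF cells had 0 UMIs in 397 cells, which allows up to 0.755 CPM.

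Plod2 codes for lysyl hydroxylase 2, which acts on the telopeptides and sets the type of crosslink. FBs held it at 113 CPM, with a wide spread among libraries (64.6, 135 and 644). The cluster led by Csf2, Il13 and Arg1, which also expressed Il1rl1, Areg and Il5, held it at 74.0 (56.2, 89.5 and 140 in 4 libraries), with a UMI in 25.8% of its 89 cells (17.1% to 36.2%). TCs held 17.4, KC/HF cells 18.9 and the unnamed Tagln Dio3 Acta2 cluster 25.1. DC/Macro had 5 UMIs in 518 cells (a UMI in 0.579% of them). In edgeR, TCs were above DC/Macro (21% of genes were) and above KCs (28.2%) at an adjusted p under 0.05, although TCs held the fewest UMIs per cell of these classes.

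Pcolce and Pcolce2 code for the procollagen C-proteinase enhancers, secreted proteins that speed up removal of the propeptide, and the pair parted in mural cells. Pcolce stood at 493 in FBs (188, 533 and 651 in 8 libraries), at 363 in SMC/PC (204, 379 and 582 in 5 libraries) and at 372 in the Ednrb Wif1 Col11a1 cluster (224, 335 and 623 in 5 libraries). That cluster carried 4 markers of SMC/PC and 3 of FBs and was therefore not named. Pcolce2 stood at 701 in FBs (185, 517 and 825), but at 36.3 in SMC/PC (9.73, 25.9 and 93.5) and 33.6 in the Ednrb cluster (4.58, 9.14 and 89.1). SMC/PC thus held 73.6% of the pooled FB level of Pcolce and 5.17% of that of Pcolce2. As means of libraries corrected for composition, SMC/PC stood at 383 against 716 in FBs for Pcolce and at 36.4 against 792 for Pcolce2. The SMC/PC means cover 5 libraries and the FB means 8, so the sets are unlike. Col1a1 and Col1a2 in SMC/PC stood at 13.1% and 11.5% of their FB level. In KCs, HFs, TCs and DC/Macro both genes were at 0.54% of the FB level or less. A Pcolce UMI was found in 46.0% of SMC/PC (36.0% to 56.3%) and a Pcolce2 UMI in 11% (5.62% to 18.8%), against 0.669% and 0.535% of TCs, which were as shallow. Of their promoter windows, that of Pcolce held 5 CpG steps and that of Pcolce2 10, which is more than 44.4% and 62.2% of all promoters. In the annotation Pcolce lies at chr5:137605103-137613784 and shares part of its span with Fbxo24 on the same strand (43 UMIs in all kept cells) and with Gm36266 on the other (75 UMIs). How reads in shared stretches were counted is not given in the sources used here, so the 6747 UMIs of Pcolce are uncertain to that extent.

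Lox, the founding lysyl oxidase, stood at 183 CPM in FBs (137, 184 and 358) and was found in 49.1% of FBs. The Ednrb cluster stood next at 148 (91.6, 137 and 197) and SMC/PC at 57.0 (9.73, 39.9 and 81.2). ECs had 0 UMIs in 83 cells, which allows up to 5.46 CPM and leaves FBs at least 33.6-fold higher. The 10 UMIs of Lox in DC/Macro came from 2 of 518 cells.

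Loxl1, the lysyl oxidase best known for elastic fibres, was the most FB-bound of the oxidases, with 97.2% of its UMIs there. FBs held 489 CPM (426, 526 and 877), the Ednrb cluster 77.4 and SMC/PC 7.78 (3 UMIs). A UMI was found in 89.4% of FBs, in 3 of 100 SMC/PC and in 0.535% of TCs.

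Loxl2, a lysyl oxidase of the matrix, was also found in mural cells and ECs. FBs held 306 CPM (222, 310 and 704), SMC/PC 181 (93.5, 200 and 297), the Ednrb cluster 175 (150, 174 and 256) and ECs 100.03 (41.1, 84.0 and 195). FBs were above ECs by 2.15 on the log2 scale in edgeR (SE 0.26, adjusted p = 2.66e-09) and in 6 of 6 libraries. ECs were above DC/Macro, HFs, KCs, KC/HF cells and TCs in the same fit (17.6%, 18.1%, 20.1%, 18.8% and 19.8% of genes were). The unnamed clusters led by Id4 and by Tagln held 22.4 and 16.5, against 1.61 in HFs. Each of these clusters carried 3 markers of SMC/PC and 3 of epithelial cells. The epithelial ones were Lhx2, Lgr5 and Sox9 in the Id4 cluster and Krt15, Lhx2 and Lgr5 in the Tagln cluster. Lhx2 and Lgr5 are hair follicle markers, so the HF level does not stand for all follicle cells.

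Loxl3 was low throughout, at 36.0 in FBs (30.3, 37.1 and 98.8), 12.96 in SMC/PC and 7.27 in ECs. DC/Macro held 14 UMIs in 14 cells, 9.89% of the FB level, which is above the collagen RNA in the same cells (0.20% for Col1a1). Loxl3 (chr6:83034173-83052562, plus strand) overlaps Htra2 on the other strand, and the sources used here do not state how strand was used in counting, so Loxl3 reads are uncertain to that extent.

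The patterns across classes were compared as Pearson correlations of log2 CPM over 79 class-by-library sums, which share libraries and depth, among 13266 genes. They describe the classes and are not tested. Pcolce ran closest to Prrx1 (r = 0.97), Pdgfrl and Lama2, and Lox to Twist1 (0.96), Srpx2 and Lama2. Pcolce2 and Loxl1 had Gfpt2 in common (0.96 and 0.94), beside Clec3b and Cd248 for Pcolce2 and Scara5 and Adgrd1 for Loxl1. Loxl2 ran with Serping1 (0.94), Fkbp10 and Nid1, Loxl3 with Bcat1 (0.90), Pla1a and Fap, and Plod1 with Pros1 (0.89), Nsg1 and Sned1. P4ha2 and Plod2 had Ssc5d in common (0.82 and 0.73), beside Tnxb and Efemp1 for P4ha2 and Ccbe1 and Chrd for Plod2. P4ha1 ran with Hsp90b1 (0.78), Ano6 and Dnajc3. Among the 10 genes, Lox and Pcolce (0.93) and Loxl1 and Pcolce2 (0.92) were closest.

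Within FBs the genes divided over 5 clusters, led by Sfrp2 Fn1 Ace (400 cells), Mfap4 Cyp26b1 Col1a1 (309), Mrgprg Smpd3 Pla1a (305, with Pi16), Mgp Angptl1 Hmcn2 (221) and Ptx3 Ccl2 Cxcl1 (167). These values describe the clusters and were not tested. Libraries with at least 10 cells of a cluster, 5 or 6 of the 8, gave the ranges.

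Lox stood at 311 CPM in the Mgp cluster (157, 315 and 446 in the lowest, median and highest of 6 libraries) and at 298 in the Mfap4 cluster (147, 225 and 468). The Sfrp2 cluster held 128, the Ptx3 cluster 81.4 and the Mrgprg cluster 65.1 (35.1, 70.9 and 104). In each of the 5 libraries that held enough cells of both, the Mgp and the Mfap4 cluster were above the Mrgprg and the Ptx3 cluster. Pooled over libraries, Pcolce followed a like order, at 806 in the Mgp, 605 in the Mfap4 and 493 in the Sfrp2 cluster. The Mrgprg cluster held 226 and the Ptx3 cluster 185. Between the Mfap4 and Sfrp2 clusters the libraries divided, each being higher in 3 of 6 (medians 615 and 626). The Mgp cluster was above the Mfap4 cluster in 6 of 6 libraries.

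Loxl1 and Pcolce2 had other orders. Loxl1 was highest in the Mrgprg cluster at 665 (571, 712 and 830) and lowest in the Mfap4 cluster at 360 (285, 393 and 424), and the former was higher in 5 of 5 libraries. Between them stood the Sfrp2 (517), Mgp (433) and Ptx3 (423) clusters. The Mfap4 cluster was below these in 6 of 6, 4 of 6 and 3 of 5 libraries in turn, so its lowest place is one of pooled levels. Pcolce2 stood at 830 in the Mrgprg cluster, 808 in the Sfrp2 cluster, 659 in the Mfap4 cluster, 638 in the Ptx3 cluster and 460 in the Mgp cluster. The Mfap4 cluster was above the Ptx3 cluster in 3 of 5 libraries, and the Mgp cluster was below the Sfrp2 cluster in 6 of 6 libraries.

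Plod2 was lowest in the Mfap4 cluster, which also led with Col1a1 and Col1a2. It stood there at 27.2 CPM (17.4, 29.9 and 74.4 in 6 libraries), against 126 in the Mgp, 130 in the Sfrp2, 140 in the Mrgprg and 201 in the Ptx3 cluster (140, 180 and 287 in 5 libraries). The Mfap4 cluster was the lower one in every library compared, 6 of 6 against the Mgp and Sfrp2 clusters and 5 of 5 against the other two. A Plod2 UMI was found in 15.5% of its cells (11.7% to 20.1%) and in 53.9% of Ptx3 cluster cells (46.0% to 61.6%), although the latter were shallower (median 6549 against 9510 UMIs). These intervals pool cells. Over single libraries the shares overlapped, at 11.9% to 46.2% in the Mfap4 and 16.7% to 66.7% in the Ptx3 cluster. Loxl3 was also lowest in the Mfap4 cluster, at 13.1 against 38.5 to 49.2 elsewhere. Plod1 and Loxl2 were not low there, at 85.4 and 380, so the lysyl hydroxylases parted within FBs. P4ha1 (113 to 155) varied little between the clusters, beside its spread of 54.9 to 346 over single libraries.

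**Figure D2:**
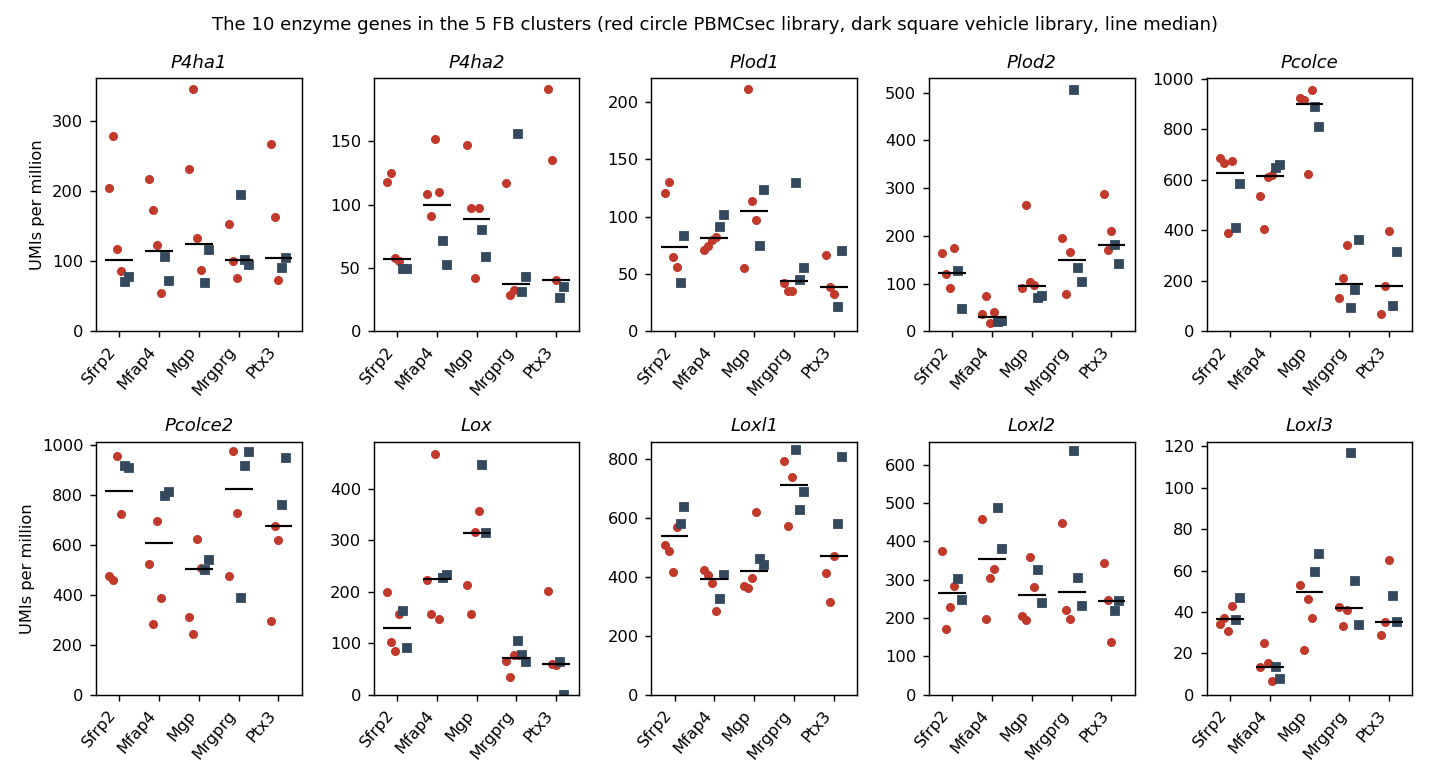
Level of each gene in each FB cluster (x axis, first leading gene) as CPM of the cluster (y axis, linear from 0), 1 point for each library with at least 10 cells, red circles for PBMCsec, dark squares for vehicle and a line at the median. Lox and Pcolce are high in the Mfap4 and Mgp clusters, and Pcolce also in the Sfrp2 cluster. Both are low in the Mrgprg and Ptx3 clusters, and Plod2 and Loxl3 are low in the Mfap4 cluster alone.

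PBMCsec and vehicle were compared by edgeR on the sums of each class, and 0 of the 10 genes passed at an adjusted p under 0.05 in FBs, where 0% of 9146 genes did. At an unadjusted p under 0.05 there was 1 of the 10 (Loxl2) against 2.61% of all genes, and DESeq2 and limma-voom called 0 of the 10 (1 each at an unadjusted p under 0.05). The edgeR count of 1 became 0 without PBMCsec library 2, 3 or 4 or vehicle library 1 or 2, and it became 3 without vehicle library 3 or 4. For these other fits the share of all genes was not taken, so their counts have no measure beside them. In FBs the fold change was below 0 for 7 of the 10 genes, where 49.6% of all genes were, and the median was -0.36 on the log2 scale against 0.00 over all genes. The groups overlapped for all 10 genes, while 1.96% of all genes did not overlap. In the following, values are TMM-scaled CPM (CPM after edgeR's correction for library composition) of libraries numbered 1, 2, 3 and 4.

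Loxl2 stood at 365, 229, 267 and 272 after PBMCsec and at 679, 628, 344 and 268 after vehicle. The vehicle libraries numbered 1 and 2, which held 28 and 20 FBs, were the high ones. The log2 fold change was -0.73 (SE 0.30, edgeR unadjusted p = 0.031, adjusted p = 1), and the exact permutation test gave p = 0.17. Libraries numbered 1 and 2 alone gave -1.14 and those numbered 3 and 4 alone -0.18.

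Plod2 had the lowest fold change, -1.02 (SE 0.58, edgeR adjusted p = 1), and the widest interval (-2.28 to 0.24). The PBMCsec libraries held 138, 177, 84.0 and 143 and the vehicle libraries 621, 386, 85.3 and 64.5. The same 2 vehicle libraries stood apart, and the other two lay near or below the lowest PBMCsec library. Without vehicle library 1 the fold change was -0.17. The direction turned with the library number, to -1.69 in numbers 1 and 2 alone and 0.58 in numbers 3 and 4 alone.

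Lox stood at 189, 141, 188 and 165 after PBMCsec and 214, 379, 193 and 163 after vehicle (log2 fold change -0.42, SE 0.27, edgeR adjusted p = 1). Loxl1 stood at 518, 474, 431 and 583 against 634, 929, 468 and 559 (-0.35, SE 0.24). The vehicle library numbered 2 was the highest for both, and without it the fold changes were -0.14 and -0.13. Loxl3 stood at 38.7, 32.4, 30.7 and 37.9 against 65.8, 105, 35.4 and 40.2 (-0.56, SE 0.31). The 4 lysyl oxidases therefore all had lower means after PBMCsec, with 0 called and with values that met in the libraries numbered 3 and 4.

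Pcolce stood at 603, 670, 409 and 629 after PBMCsec and 181, 393, 466 and 589 after vehicle (0.49, SE 0.31, 95% interval -0.19 to 1.16, exact permutation p = 0.14). It was the only one of the 10 with a log2 fold change above 0.2 in FBs. The make-up of the FBs differed between libraries as well. The Mgp cluster, where Pcolce stood highest, made up 28.75%, 32.8%, 11.02% and 13.8% of the FBs in the PBMCsec libraries and 21.4%, 10%, 12.2% and 19.7% in the vehicle libraries. For the Mrgprg cluster, where Pcolce was low, these shares were 17.5%, 10.9%, 22.04% and 26.1% against 35.7%, 20%, 19.3% and 28.7%. For the Ptx3 cluster, where pooled Pcolce was lowest, they were 7.5%, 1.56%, 15.8% and 12.3% against 3.57%, 20%, 12.2% and 7.64%. The Ptx3 shares were thus higher after PBMCsec in numbers 1, 3 and 4 and lower in number 2. Shares in vehicle libraries 1 and 2 rest on 28 and 20 FBs. The part of these shares in the Pcolce values was not tested. Numbers 1 and 2 alone gave 1.16 and numbers 3 and 4 alone -0.01. Pcolce2 stood at 440, 355, 835 and 645 against 222, 196, 770 and 817 (0.15, SE 0.44).

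Plod1 stood at 76.1, 150, 65.5 and 63.8 against 148, 196, 59.2 and 88.7 (-0.37, SE 0.38). P4ha1 stood at 217, 272, 124 and 80.4 against 218, 334, 85.6 and 90.2 (0.04, SE 0.46), and P4ha2 at 135, 117, 81.1 and 69.8 against 123, 255, 53.6 and 50.05 (-0.03, SE 0.45). The intervals of both ran from about -1 to 1 on the log2 scale, with P4ha1 at -0.96 to 1.04. Changes of up to that size in either direction are thus compatible with these data.

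**Figure D3:**
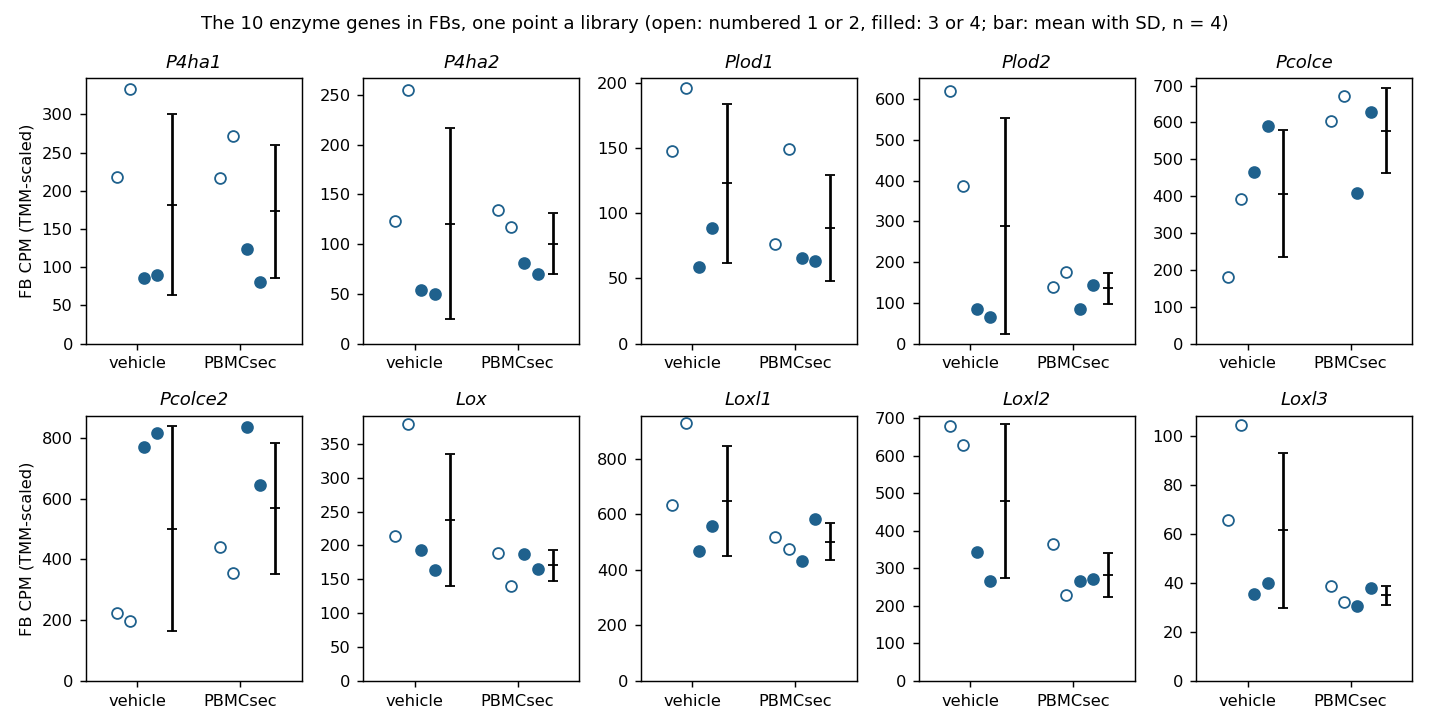
TMM-scaled CPM of each gene in FBs (y axis, linear from 0) by treatment (x axis), 1 point per library, open for numbers 1 and 2 and filled for 3 and 4, with mean and SD (n = 4) at the right of each group. P4ha1 and P4ha2 are higher in the open points and Pcolce2 in the filled ones under both treatments, and the Loxl2 and Plod2 vehicle means rest on open points.

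A split by library number ran across both treatments. All 4 libraries numbered 1 or 2 were above all 4 numbered 3 or 4 for P4ha1 (217 to 334 against 80.4 to 124) and P4ha2 (117 to 255 against 50.05 to 81.1), and below them for Pcolce2 (196 to 440 against 645 to 835). Of the 10 genes, 2 were thus higher in numbers 1 and 2, as were 3.16% of all genes, and 1 was higher in numbers 3 and 4, as were 4.64%. In either direction these were 3 of 10, against 7.8% of all genes. The split was chosen after seeing the data and was not tested. Of 13 hypoxia genes tested, Pfkfb3 and Aldoa were also higher in numbers 1 and 2, and 11 overlapped. The labels do not say what a number stands for. In the study's methods each injected group was divided over 2 time points, and since the labels tie no library to either, number and time point cannot be told apart. Between 20 and 160 FBs came from each library numbered 1 or 2 and between 138 and 499 from the others, and the part of cell number in this split was not tested.

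Of the other classes, KCs had enough counts for P4ha1, P4ha2 and Plod1, TCs for P4ha1, and DC/Macro for P4ha1 and Plod1. None was called by edgeR, DESeq2 or limma-voom (0% of all genes were by edgeR in each class), and 0 had an unadjusted p under 0.05, against 1.48% of genes in KCs, 3.15% in TCs and 4.69% in DC/Macro. P4ha1 had log2 fold changes of 0.02 in KCs (SE 0.25), 0.19 in TCs (SE 0.41) and 0.07 in DC/Macro (SE 0.41). Plod1 in DC/Macro ranged over 21.5, 26.2, 29.1 and 29.1 in the PBMCsec libraries and 23.9, 27.3, 22.3 and 8.86 in the vehicle libraries (0.44, SE 0.36), with 3 UMIs in the smallest library.

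In sums over all kept cells of a library, where a gene's level and the share of cells that express it cannot be told apart, 2 of the 10 genes were below 0, where 53.3% of all 13182 genes were, and the median was 0.32 against -0.02 over all genes. Of the 10, 0 were called by edgeR, DESeq2 or limma-voom (0% of all genes by edgeR), and 1 had an unadjusted p under 0.05 in edgeR (2.54% of all genes). Pcolce stood at 171, 181, 159 and 150 after PBMCsec and 42.5, 44.3, 105 and 131 after vehicle, so the groups did not overlap, as for 1.79% of all genes. The log2 fold change was 1.01 (SE 0.36, edgeR unadjusted p = 0.020, adjusted p = 1; exact permutation p = 0.029, the smallest that 4 against 4 libraries allow). That test took the libraries as unpaired. With libraries of equal number as pairs the fold change was 1.15, and PBMCsec was higher in 4 of 4 pairs, by 0.19 to 2.004 in log2(CPM + 1). The exact paired test, added after seeing the data, gave p = 0.125, the smallest that 4 pairs allow. The share of UMIs from FBs was 26.4%, 25.4%, 36.1% and 20.0% in the PBMCsec libraries and 21.2%, 9.41%, 20.3% and 18.5% in the vehicle libraries. SMC/PC, which also held Pcolce, had 19, 3, 20 and 16 cells in the PBMCsec libraries and 1, 1, 21 and 19 in the vehicle libraries. The part of FBs and SMC/PC in the Pcolce difference was not tested. Most further genes of collagen biosynthesis were also higher in these sums, as given below. With all deposited barcodes and no filter on cells, the Pcolce fold change was 0.41.

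**Figure D4:**
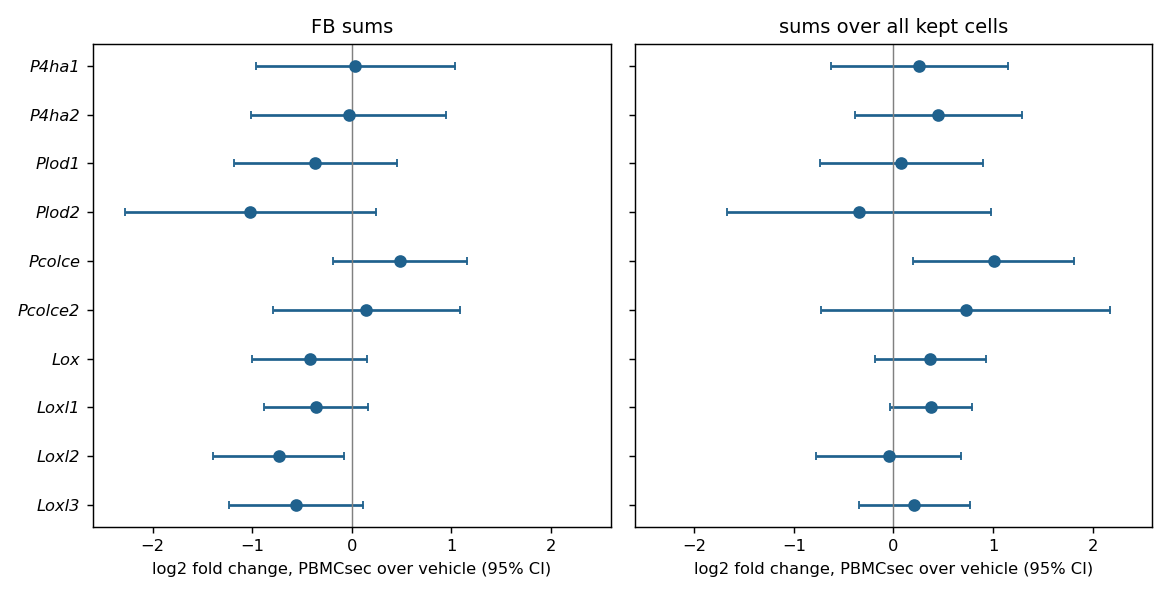
Log2 fold change of each gene, PBMCsec over vehicle, with its 95% interval from edgeR (n = 4 against 4 libraries), in FB sums (left) and in sums over all kept cells (right). In FBs only the Loxl2 interval leaves out 0, and in all cells only that of Pcolce (0.20 to 1.81), and neither passed the adjustment.

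Of 41 further genes of collagen biosynthesis, 35 were tested in FBs. Of these, 25 had a log2 fold change below 0, where 49.6% of all genes did, and 10 had one above 0 (median -0.18). Of the 35, 0 were called by edgeR, DESeq2 or limma-voom. At an unadjusted p under 0.05 there were 3 in edgeR, against 2.61% of all genes, and 1 of the 35 did not overlap between groups, against 1.96% of all genes. Serpinh1, the collagen chaperone HSP47, stood at 1289, 1699, 959 and 1288 against 700, 1165, 833 and 873 (0.56, SE 0.24, edgeR adjusted p = 1). Bmp1, the C-proteinase that Pcolce assists, was at 314, 229, 283 and 345 against 564, 844, 273 and 340 (-0.75, SE 0.32), again high in the vehicle libraries numbered 1 and 2. Postn, which brings Bmp1 and Lox together in the matrix, was that gene, at 1812, 2199, 1943 and 1397 against 2230, 3199, 2923 and 2366 (-0.54, SE 0.22). In sums over all kept cells, 36 of the 41 were tested. Of these, 30 had a log2 fold change above 0 and 6 below 0, where 53.3% of all genes were below 0. None was called by edgeR, 6 had an unadjusted p under 0.05 (2.54% of all genes) and 3 did not overlap between groups (1.79%).

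None of the fibrillar collagens was called, with log2 fold changes of -0.18 for Col1a1 (SE 0.24), -0.09 for Col1a2 (SE 0.23) and -0.34 for Col3a1 (SE 0.22). P4hb, the shared subunit of prolyl 4-hydroxylase, gave -0.14 (SE 0.24), the third lysyl hydroxylase Plod3 0.09 (SE 0.29) and the N-proteinase Adamts2 -0.18 (SE 0.22). Of the 16 hypoxia genes, 13 were tested in FBs, of which 2 had a log2 fold change above 0 and 11 had one below 0 (median -0.50, 0 called by edgeR). Among all genes 49.6% were below 0. Pgk1 and Bnip3, both hypoxia-inducible, had an unadjusted p under 0.05 in edgeR, as did 2.61% of all genes. They stood at 962 and 366 in the vehicle library numbered 2, which held 20 FBs, against 58.5 to 140 and 30.6 to 202 in all others. In the same FB sums, EC, DC and macrophage markers summed to at most 51.2 CPM in any library, and KC markers to 137 to 390 after PBMCsec and 194 to 446 after vehicle. The SMC/PC list summed to 131 to 252 against 148 to 256 and the HF list to 130 to 186 against 117 to 247. Melanocyte markers summed to 128 to 221 against 86.5 to 234, and neutrophil markers to 9.06 to 141 against 7.37 to 172. The adipocyte list summed to 895 to 2432 against 148 to 1969, with Adipoq and Cidec at 0 in every library, and the TC list to 359 to 693 against 486 to 1075, with Ms4a1 at 0. The part of these cell types in the results was not tested.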

How the data were processed

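Mouse skin libraries were prepared with 10x Genomics 3′ v3.1 chemistry. The deposited matrices held unnormalized UMI counts for each gene and barcode, which the authors made by alignment to mm10 in Cell Ranger (3.0.2 per the file headers and processing notes, another version in the methods of the paper). Barcodes were kept at 500 to 4000 genes, no more than 20000 UMIs and no more than 5% mitochondrial UMIs, and Gm42418, Gm17056 and Gm26917 were removed. Between 10.2% and 32.9% of barcodes remained per library, with median depths of 6156 to 9521 UMIs.

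Libraries were integrated and clustered in Seurat 5.3.0 under R 4.3.3 (2000 variable genes, 30 dimensions, resolution 1), without the 10 genes and both gene lists. Of 32 clusters, 28 were named by at least 3 markers found in at least 25% of cells at 2-fold or more, a rule set after the clusters were seen. Scrublet in scanpy 1.11.5 marked only 21 cells as doublets (0.341%), so its calls were not used, and removal of the 5% highest scores served as an alternative.

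Class sums of each library were compared in edgeR 4.0.16 (TMM scaling, filterByExpr, quasi-likelihood test) with Benjamini-Hochberg adjustment over all genes. DESeq2 1.42.0, limma-voom 3.58.1 and two-sided exact permutation tests over 70 labellings were run beside it. The fit over classes, the addition of the Ednrb cluster to FBs and the removal of the Ptx3 cluster were chosen after seeing the data. The rule for named genes took all 10 genes in every class, their 3 most similar genes, and from the lists the called genes and 8 listed in the rule, to which genes with an unadjusted p under 0.05 were added after their values were seen. The 10 genes and the lists were chosen with earlier results of these data known. Intervals on shares and the floor of 3 counts for values of 0 cover counting error only. The scripts were tested on simulated data.

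Libraries with equal numbers deviated together in TCs (correlations of 0.32, 0.18, 0.17 and 0.40) and in all-cell sums (0.29, 0.30, 0.47 and 0.57). Libraries of unlike number were not compared in this way, so these values do not show that equal numbers are pairs. The labels do not state that equal numbers pair libraries, so the fits are without the number as a block. Paired values are given as alternatives. In FBs, KCs and DC/Macro the correlations of equal numbers were 0.16, -0.02, 0.06 and 0.15, then 0.14, -0.03, 0.17 and 0.39, then 0.31, 0.09, 0.27 and 0.28. Gene positions come from GENCODE M21 (GRCm38) and promoters from RefSeq (GRCm38.p6). Other experiments of the study were not analysed here.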

Additional observations from a re-analysis of the deposited data

Results flagged for a closer look

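Of 32 groups of 4 libraries examined for a value far from the others, 1 stood out, where chance marks about 1 in 20. Plod1 in FBs was at 150 CPM (149.6) in the PBMCsec library numbered 2, which held 64 FBs, while the other PBMCsec libraries lay between 63.8 and 76.1. The gap was 0.856 of the range of the group, above Dixon's 95% critical value for 4 samples.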

How the results depend on the processing

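No alternative called any of the 10 genes between treatments in any class, each library left out in turn included, while between 0 and 5 of them had an unadjusted p under 0.05 in FBs. The share of all genes under that limit was taken for the main fit alone (2.61%). The counts of the alternatives therefore cannot be set against all genes. The number of genes with their highest level in FBs among the named classes was 9, and 10 without the 5% highest doublet scores, where Plod1 moved from ECs to FBs. Of 541 recomputed fold changes of single genes, 465 kept their direction and 76 turned. No FB cluster drew most of its cells from 1 library, so that alternative gave no value.

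With libraries numbered 3 and 4 alone, the log2 fold change in FBs turned for Plod2 (0.58), P4ha2 (0.56), Pcolce (-0.014), Pcolce2 (-0.089), P4hb (0.091), Plod3 (-0.0038), Bmp1 (0.041), Adamts2 (0.081), Col1a1 (0.19), Col1a2 (0.21) and Col3a1 (0.020). In KCs it turned for Plod1 (0.23) and P4ha2 (0.10), and in all-cell sums for Loxl2 (0.26) and Plod2 (0.65). Numbers 1 and 2 alone turned P4ha1 in FBs (-0.17), KCs (-0.042), TCs (-0.10) and DC/Macro (-0.069) and Plod1 in all-cell sums (-0.10). P4ha1 in FBs also turned with DESeq2 (-0.033) and with scaling to the total alone (-0.0045), and in KCs with a mitochondrial limit of 10% (-0.061). P4ha2 in FBs turned with limma-voom (0.38), without a filter on low counts (0.020), with the Ednrb cluster (0.019), without the 5% highest doublet scores (0.37) and without the Ptx3 cluster (0.34). In all-cell sums, limma-voom turned Loxl2 (0.035) and Plod2 (0.29), no filter turned Loxl2 (0.0023), and all deposited barcodes turned Loxl3 (-0.46) and Plod1 (-0.17). The cause was not tested.

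With the replicate block, 0 genes were called in any class and no call changed. P4ha2 in FBs turned (0.073), as did Plod1 (0.028), P4ha1 (-0.023) and P4ha2 (0.10) in KCs and Plod2 in all-cell sums (0.062). Paired in this way, P4ha1 in TCs gave 0.17 and Pcolce in all-cell sums 1.15.

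Leaving out 1 library at a time, directions turned in FBs for P4ha1 (-0.24 to 0.49), P4ha2 (-0.36 to 0.56), Pcolce2 (-0.10 to 0.48), P4hb (-0.23 to 0.12), Plod3 (-0.13 to 0.25) and Col1a2 (-0.24 to 0.034). They turned in KCs for Plod1 (-0.57 to 0.0055), P4ha1 (-0.14 to 0.18) and P4ha2 (-0.22 to 0.11), and for P4ha1 in TCs (-0.19 to 0.61) and DC/Macro (-0.14 to 0.52). In all-cell sums they turned for Loxl2 (-0.18 to 0.32), Plod1 (-0.22 to 0.28) and Plod2 (-0.63 to 0.62). In KCs and DC/Macro some alternatives left Plod1 or P4ha2 below the filter and gave no value. The FB values rest on 20 and 28 FBs in 2 vehicle libraries, and all changes within a printed FB interval remain compatible with these data.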
